A study of Arabidopsis thaliana with 6 samples.

Results

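The 4 seedling arrays of the series, of 6 arrays in all, set Arabidopsis seedlings in which GRF9 was induced with estradiol (EST) against seedlings given the solvent. The plants were 2-week-old Col-0 seedlings of the GRF9-IOE line, which carries GRF9 under an estradiol-inducible promoter, grown on MS plates in long days. EST seedlings received 10 µM estradiol and were harvested at 3 h and at 4 h, and mock seedlings received 0.1% ethanol according to the sample labels and were harvested at the same times. Each combination of treatment and time was 1 biological sample on 1 Affymetrix ATH1 array, so that the 2 EST arrays were compared with the 2 mock arrays and the spread within a treatment holds both the 1-h difference in time and the difference between samples. All 4 arrays carry the transgene. No line without it was given EST, so the effect of GRF9 and that of the inducer itself cannot be told apart. GRF9 has no probe set on ATH1, and its own induction therefore cannot be checked on these arrays. The 2 remaining arrays, of detached leaves, were not used.

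GRFs are plant transcription factors that bind DNA through a WRC domain and work together with GIF co-activators, and they are known mainly for their part in leaf growth through cell proliferation. The EST system used here is an artificial transcription factor that enters the nucleus when it binds estradiol and then switches on the transgene. Genes that react within a few hours of such a switch include direct targets as well as genes further along, and an array of whole seedlings cannot separate them, nor can it tell more RNA per cell from more cells of a type.

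The signals are given as deposited, on the log2 scale after GCRMA normalization, so that a difference of 1 is a 2-fold difference. For each of 22746 probe sets, a rise was measured as the lower EST value minus the higher mock value, and a fall as the higher EST value minus the lower mock value. This difference is called the gap below. A gap of 1 means that both EST arrays lay at least 2-fold above both mock arrays, whichever mock array is set against whichever EST array. The 4 arrays correlated with each other at 0.995 to 0.997 over all probe sets. About 38.3% to 38.5% of the values on each array lay within 1 log2 unit of the lowest value, 2.15, and 8458 probe sets did so on all 4 arrays. A fall cannot be seen below that level and a rise out of it is understated. PYK10, an abundant root β-glucosidase, had signals of 12.27 and 12.06 in EST seedlings and 12.08 and 12.07 in mock seedlings, and the Rubisco activase RCA had 13.44 and 13.64 in EST seedlings and 13.67 and 13.52 in mock seedlings. These are the only markers of roots and of green tissue among the listed ones whose probe sets could be named (1 of 13 and 1 of 7). Of 23 markers of flowers, seeds and pollen, 2 could be named, PAP85 and AGL66, and both lay at the array minimum on every seedling array.

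In EST seedlings 52 probe sets rose at least 2-fold by the gap (0.229% of all tested) and 2 fell at least 2-fold (0.00879%). The rises thus outnumbered the falls. The same measure applied to time, with both 4 h arrays against both 3 h arrays whatever the treatment, gave 3 probe sets at least 2-fold higher at 4 h and 3 lower. The plot of probe sets by size of gap shows where the comparisons part. At gaps of 0.1 the EST and time comparisons were of like size, with 1640 probe sets higher in EST and 1870 higher at 4 h, whereas at 0.5 the numbers were 266 and 87 and at 1.5 they were 13 and 1. On the side of the falls they did not part in this way. At 0.5 there were 33 probe sets lower in EST seedlings and 37 lower at 4 h. Since both comparisons use the same 4 arrays, these counts stand side by side as a description. Leaving out an array can only enlarge gaps: the rises numbered 118 without the EST 3 h array, 119 without the EST 4 h array, 70 without the mock 3 h array and 164 without the mock 4 h array, and the falls 9, 29, 15 and 44.

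**Figure D1:**
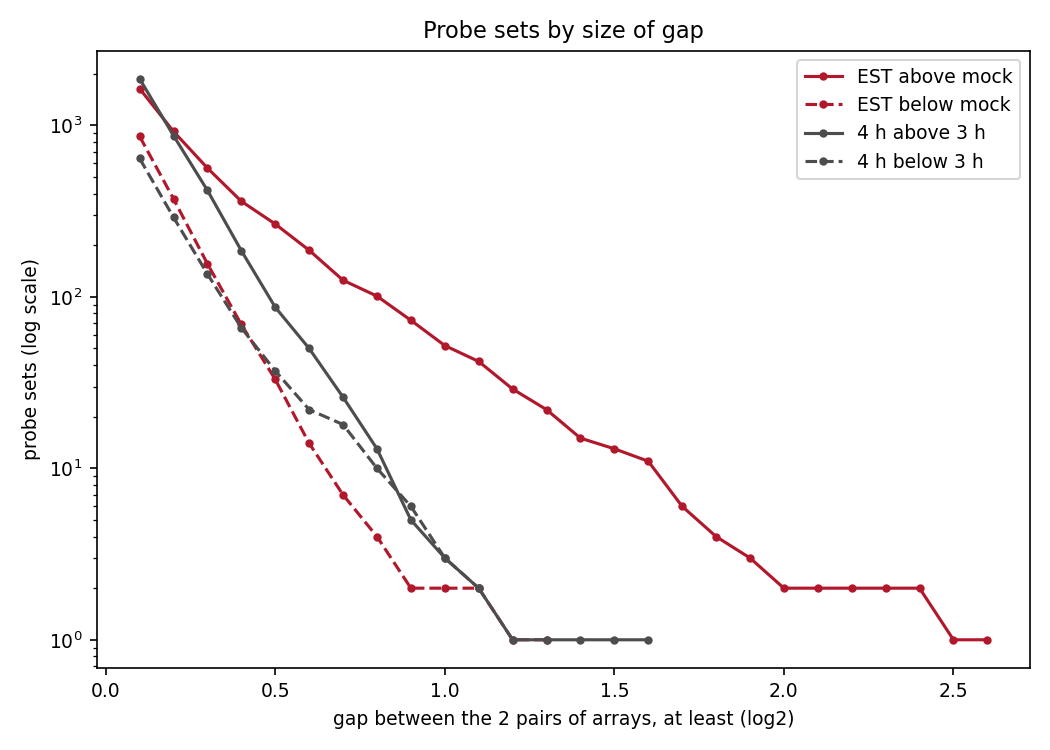
Number of probe sets (log scale) whose gap is at least the value on the x axis (log2), for EST above mock and EST below mock (red, solid and dashed) and for both 4 h arrays above or below both 3 h arrays (grey, solid and dashed). The line for EST above mock reaches 52 probe sets at a gap of 1, where the other lines stand at 2 or 3.

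With 2 arrays against 2, an exact permutation test cannot give a two-sided p below 0.333, so single genes were tested in a model fitted across all probe sets. limma without a filter called 2 probe sets higher (0.00879% of those tested) and 2 lower (0.00879%) at an adjusted p of 0.05, while 923 higher and 551 lower had an unadjusted p under 0.05. All 4 called probe sets had nearly identical values within each treatment. AT3G55470, a calcium-dependent lipid-binding family protein, had signals of 7.18 and 7.18 in EST seedlings and 6.13 and 6.11 in mock seedlings (difference 1.06 ± 0.00682, SE, limma adjusted p = 0.0461), and it was the only one of the 52 risers to be called. AT5G38900 had 3.26 and 3.26 in EST seedlings against 2.67 and 2.67 in mock seedlings (limma adjusted p = 0.0232), and PRA1.H, a PRA1-family protein, had 6.31 and 6.31 in EST seedlings against 6.56 and 6.56 in mock seedlings (limma adjusted p = 0.0461). When probe sets with a mean signal under 6 were left out, limma called 0 of 10084 probe sets in either direction, while 653 had a higher and 222 a lower EST signal with unadjusted p below 0.05. In that fit the smallest adjusted p was 0.0949, and it was shared by 267238_at, AT1G74010, AT1G19020, FRK1 and AT3G13310, all among the 52 risers. The risers that passed the filter numbered 26, and all had an unadjusted p under 0.05 there. The calls of the unfiltered fit depended on the arrays and on the design. With time as a block, which pairs each EST array with its mock array, limma called 0 in either direction (smallest adjusted p = 0.334, which was also that of AT3G55470). Without the EST 3 h, the EST 4 h or the mock 3 h array it called 0 as well, and without the mock 4 h array it called 93 probe sets higher and 373 lower. Without either mock array the other stands alone, so the spread comes from the 2 EST arrays only. Why these fits differ in their calls was not tested. No further rise or fall named below passed limma's threshold over all probe sets, and they are described by their values on the 4 arrays.

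The largest gap belonged to AT4G39670, a glycolipid transfer protein family member. Its signals were 7.33 at 3 h and 6.95 at 4 h in EST seedlings, against 4.21 and 4.35 in mock seedlings. The EST arrays lay at least 6.07-fold above the mock arrays, with a mean difference of 2.86 ± 0.187 (SE, n = 2 each; limma adjusted p = 0.286). The second largest gap, 2.50, came from probe set 267238_at, which the annotation does not pair with a gene. It had 8.71 and 8.14 in EST seedlings and 5.23 and 5.64 in mock seedlings, a gap of 5.64-fold, and it is the only one of the 52 that is not in the study's list of EST-responsive genes. AT1G74010, of the calcium-dependent phosphotriesterase family, followed with 8.16 and 7.76 in EST seedlings and 5.78 and 5.47 in mock seedlings. In all 3 the arrays of one treatment lay at most 0.57 apart, while the treatments were at least 1.98 apart. The plot of all 52 shows each of them array by array.

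**Figure D2:**
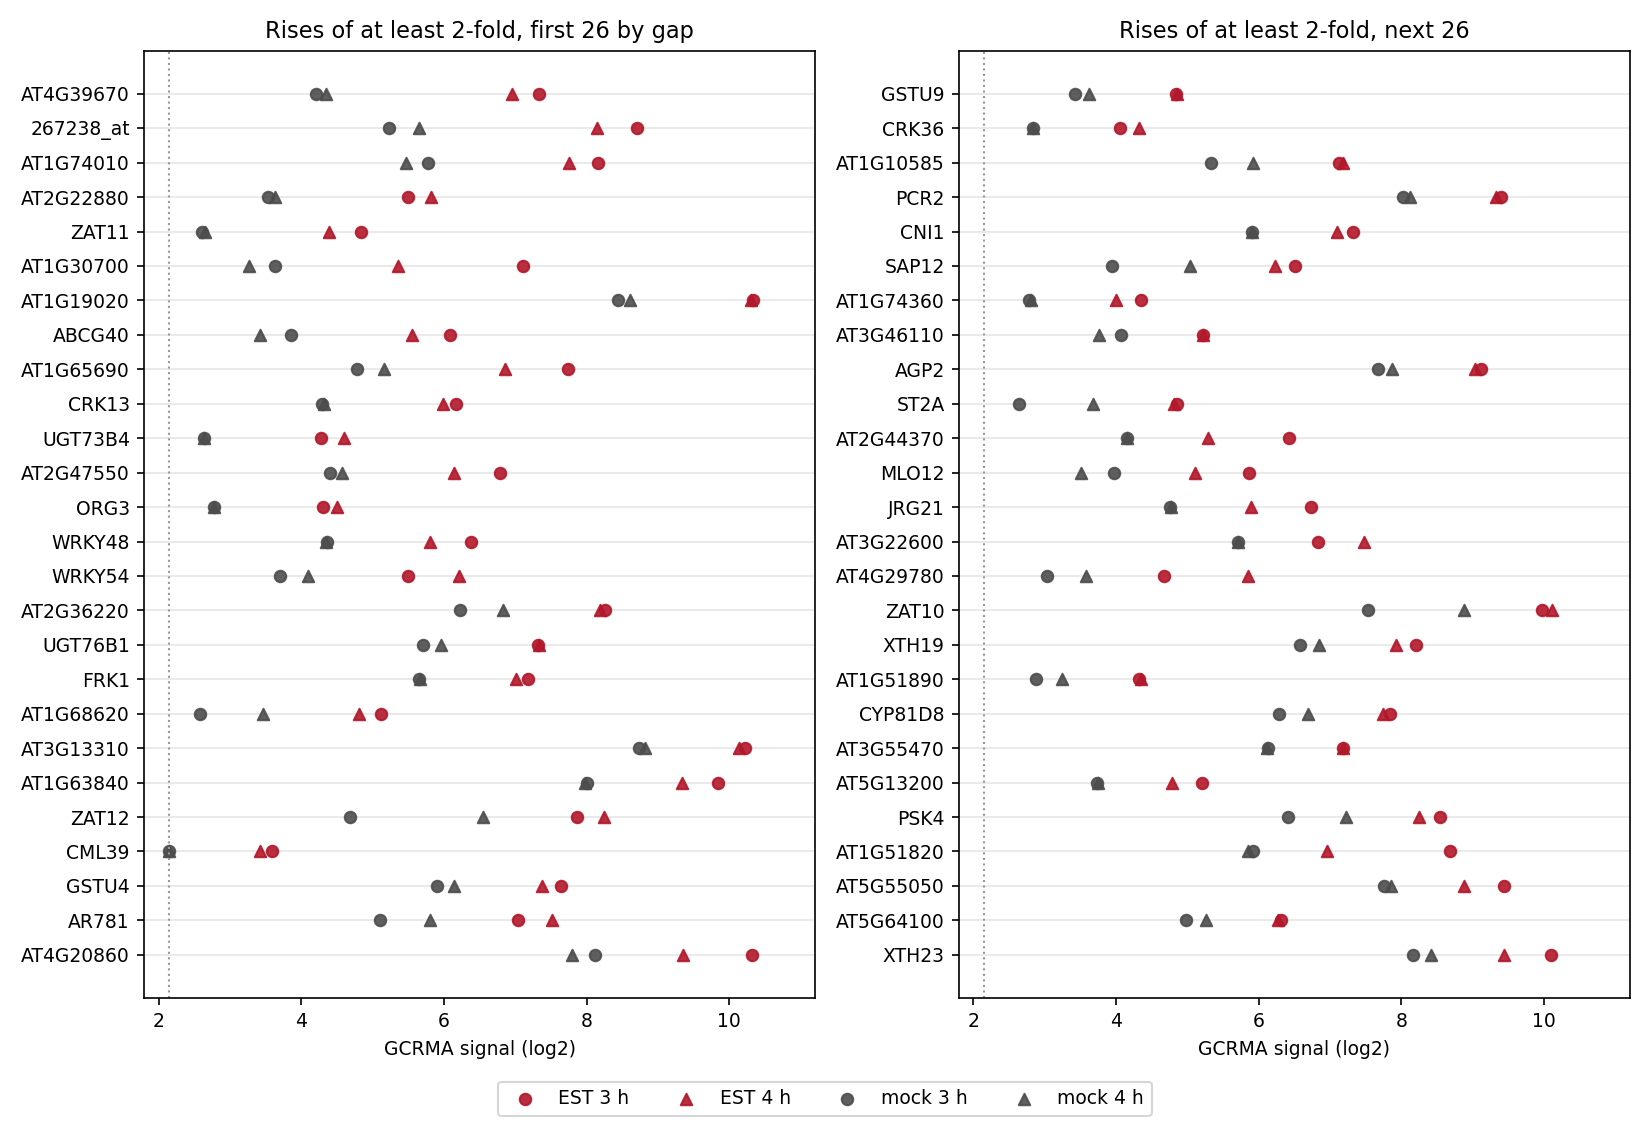
GCRMA signal (log2) of the 52 probe sets that rose at least 2-fold, ordered by gap from the top of the left panel to the bottom of the right one, on the EST arrays (red) and the mock arrays (grey), with circles for 3 h and triangles for 4 h. The dotted line is the array minimum, and in every row both red symbols lie at least 1 unit to the right of both grey ones, from 2.60 for AT4G39670 down to 1.02 for XTH23.

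The study drew up its list from these 4 arrays and the 2 leaf arrays, as genes changed at least 2-fold in at least 2 time points. Membership is therefore not independent of the values given here. A probe set with a gap of at least 1 meets that rule at 3 h and 4 h, so its place in the list was largely set in advance. Of its genes, 89 listed as higher and 5 as lower could be tied to a probe set. Among the 89, 51 had a gap of at least 1. Another 37 did not overlap between treatments but had a smaller gap, between 0.20 and 0.99 with a median of 0.70, and setting each EST array against the mock array of its own time gave a 2-fold rise at both times in 29 of these 37. The mock arrays lay 0.55 apart in the median of these 37 genes and 0.22 apart in the median of the 52 risers. A distance between the arrays of a treatment lowers the gap, so this contrast comes with the measure and is no separate result. In 27 of the 37 the mock 4 h array was the higher one, and its median over all probe sets was higher too, 5.29 against 5.16. GSTU25, a tau-class glutathione transferase, was of this kind, with 7.41 and 7.75 in EST seedlings against 4.04 at 3 h and 6.50 at 4 h in mock seedlings. The 1 remaining gene of the 89, the sugar transporter SWEET13, overlapped: it had 6.23 and 4.97 in EST seedlings and 4.56 and 5.96 in mock seedlings, so that EST was higher at 3 h and lower at 4 h.

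Transcription factors and zinc-finger proteins made up 8 of the 52 risers, with gaps between 1.1 and 1.74. ZAT11, a C2H2 zinc finger factor, had 4.84 and 4.38 in EST seedlings and 2.61 and 2.65 in mock seedlings, where it was near the array minimum. The related stress factors ZAT10 and ZAT12 had signals well above the minimum and shared a mock signal that was higher at 4 h than at 3 h. ZAT12 had 7.86 and 8.24 in EST seedlings against 4.69 and 6.55 in mock seedlings, and ZAT10 had 9.97 and 10.10 against 7.53 and 8.87 in mock seedlings. The treatments did not overlap for either gene, but the difference at 3 h (3.18 for ZAT12) was well above that at 4 h (1.69). WRKY54, a factor known from salicylate signalling and leaf senescence, had 5.49 and 6.22 in EST seedlings and 3.70 and 4.09 in mock seedlings. WRKY48 had 6.38 and 5.81 in EST seedlings and 4.37 and 4.35 in mock seedlings. SAP12, an AN1-type zinc finger protein, and the bHLH gene AT1G10585 completed the group together with ORG3.

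ORG3, also called bHLH039, is a bHLH factor of the iron-deficiency response and was selected by the study as a target of GRF9. Its signals were 4.31 and 4.49 in EST seedlings and 2.78 and 2.78 in mock seedlings, a gap of 1.53, or 2.88-fold. Both mock values lay within 1 unit of the array minimum, where a rise is understated. In the same fit its mean difference was 1.62 ± 0.0861 (SE, n = 2 each; limma adjusted p = 0.253), and it ranked 13 of all probe sets by gap. The study tested binding of GRF9 to the ORG3 promoter on designed oligonucleotides and by chromatin immunoprecipitation in seedlings. It also tested activation of that promoter in protoplasts and the leaves of plants changed in both genes. By qRT-PCR it reported more ORG3 RNA in plants that overexpress GRF9 without the estradiol system, and less in grf9 mutants. The oligonucleotides are shown because they carry the site that links this riser to GRF9. The arrays do not measure binding. In both sequences, given 5′ to 3′, the capitals mark positions 18 to 23, counted from 1 at the 5′ end, where the wild-type oligonucleotide of 40 bases holds the core CTGACA.
ORG3 wild-type oligonucleotide: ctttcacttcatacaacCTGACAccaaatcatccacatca
ORG3 mutated oligonucleotide: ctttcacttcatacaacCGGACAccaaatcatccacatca
The mutated oligonucleotide differs from the wild-type one by T19G alone. Promoters of the other risers were not analysed here.

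Protein kinases, mostly receptor-like, supplied 6 risers with gaps between 1.03 and 1.66. CRK13, a cysteine-rich receptor-like kinase, had 6.17 and 5.98 in EST seedlings and 4.29 and 4.32 in mock seedlings, and CRK36 of the same family had 4.05 and 4.31 in EST seedlings against 2.83 and 2.83. FRK1, a leucine-rich repeat kinase used as a marker of the response to bacterial flagellin, had 7.17 and 7.01 in EST seedlings and 5.65 and 5.66 in mock seedlings. In these 3 genes the 3 h and 4 h arrays of each treatment differed by at most 0.27. The remaining kinases were AT1G74360, AT1G51890 and AT1G51820, all of the leucine-rich repeat type. AT1G51820 had the most uneven EST signals of the group, 8.68 at 3 h and 6.95 at 4 h, against 5.92 and 5.84 in mock seedlings.

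Genes for transport, conjugation and oxidation of small molecules gave 8 risers with gaps between 1.06 and 1.70. ABCG40, an ABC transporter known to import abscisic acid, had 6.08 and 5.55 in EST seedlings and 3.85 and 3.42 in mock seedlings. UGT73B4 and UGT76B1 are glycosyltransferases, and UGT76B1 conjugates salicylate and isoleucic acid. UGT73B4 had 4.27 and 4.60 in EST seedlings against 2.63 and 2.63 in mock seedlings, close to the minimum, and UGT76B1 had 7.32 and 7.34 against 5.71 and 5.96 in mock seedlings. The glutathione transferases GSTU4 and GSTU9, the cytochrome P450 CYP81D8, the sulfotransferase ST2A and the cadmium resistance protein PCR2 had gaps of 1.24, 1.23, 1.06, 1.14 and 1.19. The probe set of PCR2 is of a type that can bind transcripts of several related genes.

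Cell wall and secreted proteins contributed 7 risers, with gaps between 1.02 and 1.56. The pectin methylesterase inhibitor family gene AT2G47550 had 6.79 and 6.14 in EST seedlings and 4.41 and 4.58 in mock seedlings. XTH19 and XTH23, which cut and rejoin xyloglucan, had 8.20 and 7.92 and 10.10 and 9.43 in EST seedlings, against 6.58 and 6.84 and 8.16 and 8.42 in mock seedlings. PSK4, a precursor of the growth peptide phytosulfokine, had 8.55 and 8.25 in EST seedlings against 6.42 and 7.22 in mock seedlings. AGP2, AT3G22600 and the peroxidase AT5G64100 had gaps of 1.15, 1.12 and 1.02.

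Several of the strongest risers fall outside these groups. AT2G22880, a VQ-motif protein of a family that binds WRKY factors, had 5.49 and 5.82 in EST seedlings and 3.53 and 3.63 in mock seedlings. The FAD-binding berberine family gene AT1G30700 had 7.10 at 3 h but 5.36 at 4 h in EST seedlings, against 3.63 and 3.26 in mock seedlings, and AT4G20860 of the same family had 10.31 and 9.35 against 8.12 and 7.80 in mock seedlings. AT1G19020, of unknown function, was among the brightest risers, with 10.33 and 10.31 in EST seedlings and 8.44 and 8.61 in mock seedlings. AT1G65690, a late embryogenesis abundant family protein, had 7.75 and 6.86 against 4.78 and 5.16 in mock seedlings, and AT2G36220 had 8.26 and 8.19 against 6.22 and 6.83 in mock seedlings. CML39, a calmodulin-like protein, stood at the array minimum in mock seedlings (2.15 and 2.15) and at 3.59 and 3.42 in EST seedlings. The ubiquitin ligases CNI1 and AT1G63840 had gaps of 1.19 and 1.32.

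The size of the rise was not the same at the 2 times. In 43 of the 52 risers EST exceeded mock by more at 3 h than at 4 h, with a median difference of 1.86 at 3 h and 1.35 at 4 h, while the median over all probe sets was 0.00 at both. Both treatments differed between the times: EST 3 h was above EST 4 h in 36 of the 52, and mock 4 h was above mock 3 h in 35. The 4 h arrays were brighter over all probe sets, with medians of 5.29 against 5.16 in mock and 5.33 against 5.255 in EST seedlings. Over all probe sets 4035 lay higher on both 4 h arrays than on both 3 h arrays, and 1747 lay lower. Both mock arrays lay near the array minimum in 6 risers and 1 of them in another 4. Over all 22746 probe sets the difference at 3 h correlated with that at 4 h at 0.34, and at 0.42 over the 10084 probe sets with a mean signal of at least 6. When each EST array was set against the mock array of the other time these values were 0.14 and 0.21. Probe sets are not independent replicates, and each correlation is a description of 4 arrays.

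**Figure D3:**
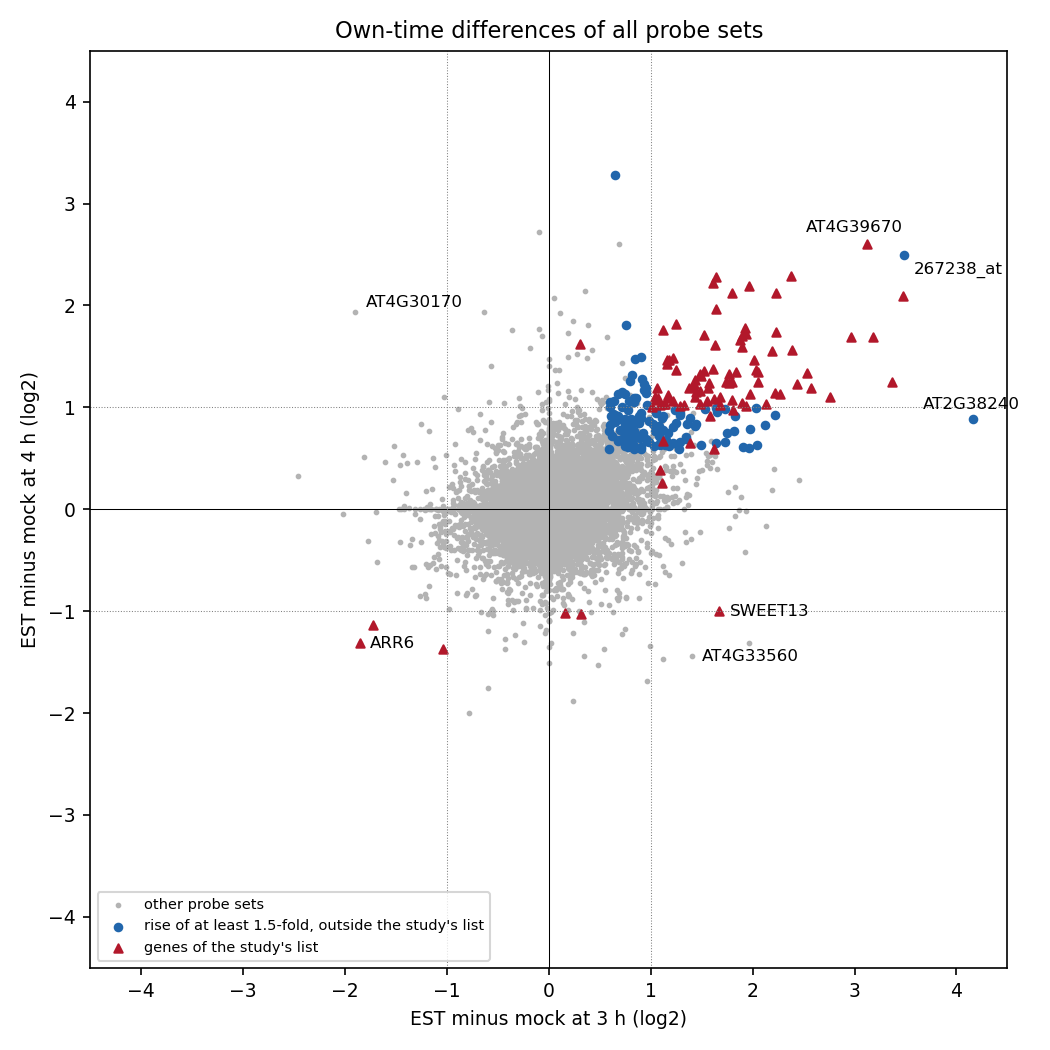
EST minus mock at 3 h (x axis, log2) against EST minus mock at 4 h (y axis, log2) for all 22746 probe sets, with genes of the study's list as red triangles, probe sets outside it that rose at least 1.5-fold by the gap as blue circles and the others in grey. Probe set 267238_at lies among the red triangles of the upper right, and dotted lines mark 2-fold differences.

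Rises outside the study's list were smaller, which follows from its rule, since that rule takes up genes changed at least 2-fold in at least 2 time points. At a lower threshold they were more numerous. With a gap of at least 1.5-fold, 200 probe sets rose (0.879% of those tested) and 15 fell (0.0659%), against 56 higher and 24 lower at 4 h by the same measure of time. Of the 200, 122 are not in the study's list, and 54 of these could be named. Against the mock array of its own time, EST exceeded mock 2-fold in 75 of the 122 at 1 time or both, but only in 267238_at at both. Probe sets that rose 2-fold at both times meet the rule of the list, so few could be left outside it. The gaps on either side of 1 ran without a break, from 1.02 in AT5G64100 and XTH23 to 0.99 in B120, AT5G48540, probe set 254215_at and AT1G51790.

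B120 had 5.34 and 4.73 in EST seedlings and 3.30 and 3.74 in mock seedlings, and AT1G51790 had 7.80 and 7.65 in EST seedlings and 6.27 and 6.66 in mock seedlings. Among the 20 named genes with the largest gaps outside the list AT4G20830 was the most even, with 10.49 and 10.52 in EST seedlings against 9.52 and 9.50 in mock seedlings (difference 0.99 ± 0.0187, SE, n = 2 each; limma adjusted p = 0.137), and it was bright on all 4 arrays. AT2G38240 was the least even of these 20. Its EST signals were 6.55 at 3 h and 4.29 at 4 h and its mock signals 2.39 and 3.40. The difference was thus 4.17 at 3 h, above that of every gene in the study's list at that time, and 0.89 at 4 h. The mock signal at 3 h lay near the array minimum, and each difference sets 1 array against 1 array. AT3G01830 and AT3G25610 had gaps of 0.95 and 0.91, AT2G15320 0.90, AT5G48490 0.89, AT1G66090 0.88, AT2G28400 0.87 and AT5G25930 0.84. AT1G59910, AT1G74450, AT4G39320, AT3G50900 and AT3G27880 each had 0.82, and AT2G18690 had 0.77. Of the 20, 3 have names with a well-known role, PYE, PDF1.2 and PRN.

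PYE (POPEYE) is a bHLH factor that, like ORG3, belongs to the iron-deficiency response, where it acts in the root pericycle. It had 6.14 and 5.98 in EST seedlings and 4.85 and 5.04 in mock seedlings, a gap of 0.95. The other iron genes that the annotation names did not follow. ORG1, which like ORG3 was named only through the study's list, was higher in EST seedlings, with a gap past 1.5-fold. Its mean difference was 1.54 ± 0.479 (SE, n = 2 each; limma adjusted p = 0.853). BHLH101, of the same subgroup as ORG3, had the lowest value, 2.15, in every sample, and ILR3 had 9.25 and 9.32 in EST seedlings and 9.02 and 9.32 in mock seedlings. bHLH104 had 8.13 and 8.12 in EST seedlings against 8.30 and 8.33 in mock seedlings. The plant defensin PDF1.2, a marker of jasmonate and ethylene signalling, had 10.55 and 10.61 in EST seedlings and 9.75 and 9.72 in mock seedlings. Its 3 h and 4 h arrays differed by at most 0.06 within a treatment. PRN, a pirin, had 8.37 and 7.82 in EST seedlings and 7.01 and 6.98 in mock seedlings.

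**Figure D4:**
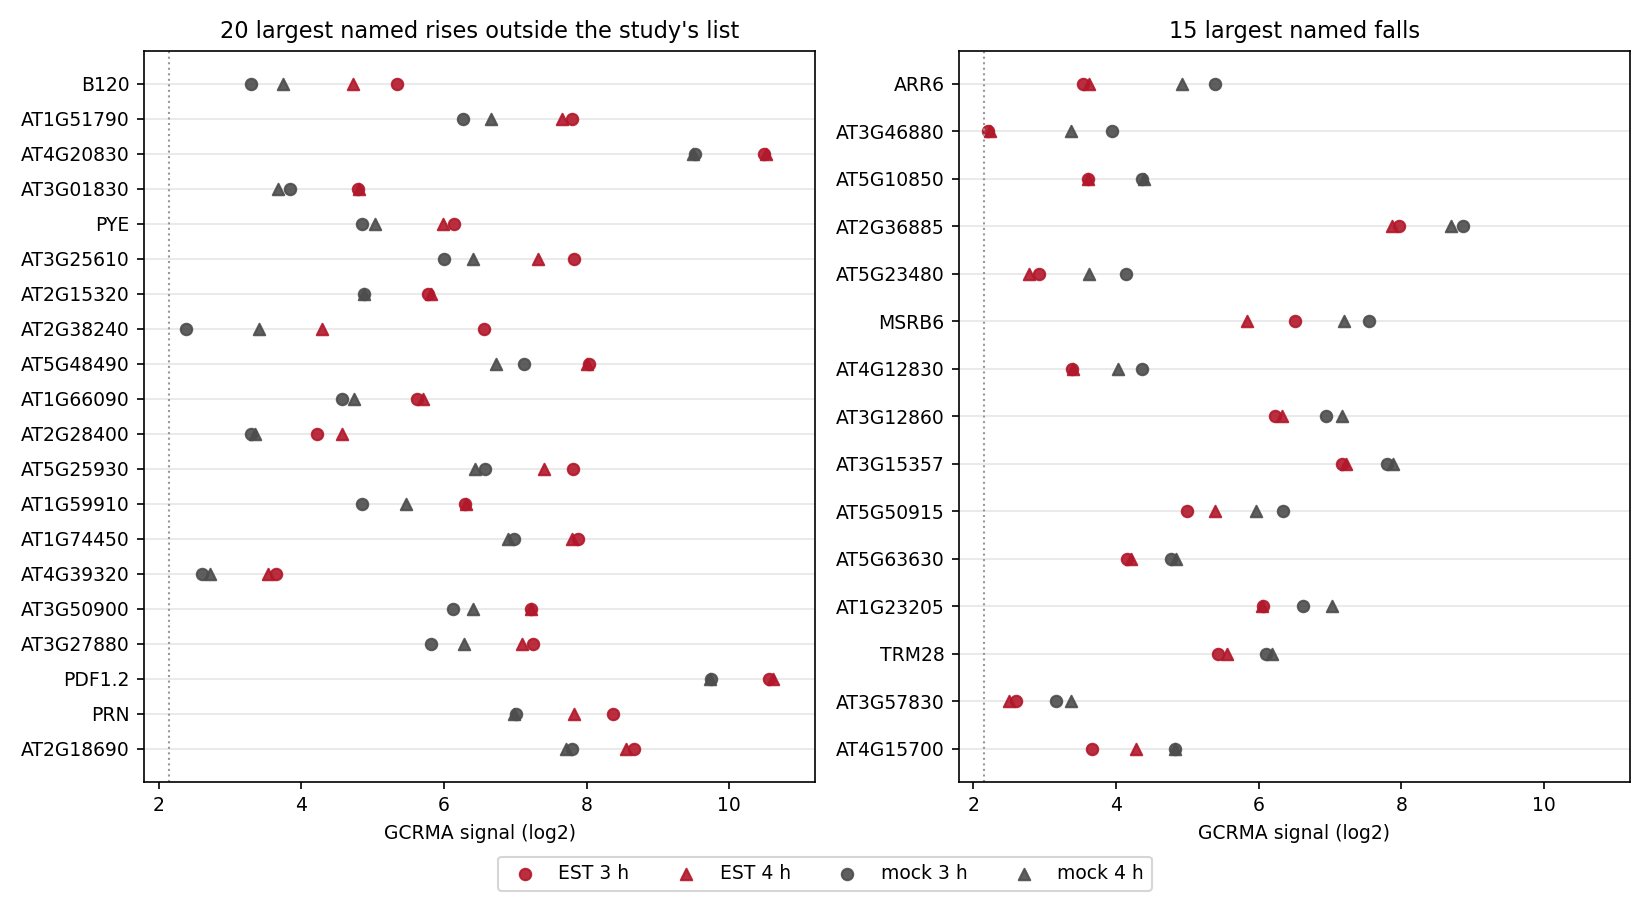
GCRMA signal (log2) of the 20 named genes with the largest rises outside the study's list (left) and of the 15 named genes with the largest falls (right), on the EST arrays (red) and the mock arrays (grey), with circles for 3 h and triangles for 4 h and a dotted line at the array minimum. The rises run from a gap of 0.99 for B120 to 0.77 for AT2G18690 and the falls from −1.32 for ARR6 to −0.55 for AT4G15700.

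Gene families were counted over members that the annotation names, since genes found only through the study's list were found because they moved. Without a threshold on size, 3186 probe sets lay higher on both EST arrays than on both mock arrays (14.0% of those tested) and 2235 lay lower (9.83%). This split depends on scaling, since quantile normalization gave 2836 higher and 3262 lower and centring the arrays 2466 and 3432, so counts of non-overlapping members are given for what they are and the sizes matter more. Of 72 WRKY genes only 7 could be named by the annotation, and of these 4 lay higher in EST seedlings and 0 lower. WRKY40, WRKY48 and WRKY54 were named only through the study's list and are not counted. WRKY53, a regulator of leaf senescence, had 6.41 and 6.46 in EST seedlings and 5.43 and 5.80 in mock seedlings, and WRKY6 had 7.71 and 7.20 against 6.60 and 6.64 in mock seedlings. WRKY22, of the flagellin pathway, had 6.18 and 5.08 in EST seedlings against 4.63 and 4.64 in mock seedlings. Of these only WRKY53 passed 1.5-fold by the gap. Of 8 calmodulin-like genes 5 lay higher and 0 lower. CML37, among these 5, was near the minimum on all 4 arrays, with a gap of 0.04. CML38, the chromosomal neighbour of CML39, had 9.09 and 9.02 in EST seedlings against 7.34 and 8.28 in mock seedlings. MLO12 and AT2G39210 are a second pair of neighbours that both rose at least 1.5-fold, with gaps of 1.13 and 0.75. Whether probe sets of such neighbours bind each other's transcripts was not tested.

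Of 51 UDP-glycosyltransferases 15 lay higher in EST seedlings and 4 lower, but only UGT73B4, UGT76B1 and UGT76E12 rose at least 1.5-fold, and the median difference of the list was 0.00. UGT76E12 had 3.84 and 3.74 in EST seedlings and 3.06 and 3.13 in mock seedlings. Among 12 U-box and ATL ubiquitin ligases 4 lay higher and 2 lower, led by PUB23 and PUB22, negative regulators of drought and flagellin responses. PUB23 had 5.78 and 5.99 in EST seedlings against 4.74 and 4.88 in mock seedlings, and PUB22 had 4.64 and 4.25 against 3.68 and 3.39. In the list of xyloglucan hydrolases and expansins, 16 of 29 members were near the minimum on all 4 arrays. Of the 29, 7 lay higher and 1 lower, and XTH19 alone reached 1.5-fold. EXPA16, EXPA20 and XTH20, counted as higher, and EXLA2, the 1 counted as lower, were near the minimum throughout. Their gaps were 0.06, 0.04, 0.0002 and −0.03. Of 11 tau glutathione transferases 3 lay higher and 1 lower, with GSTU25 the only one of these past 1.5-fold. The risers CNI1, XTH23, GSTU4 and GSTU9 were named only through the study's list and are not counted in these lists. SAG101, which works with EDS1 in defence and is also named for senescence, was the only salicylate gene that the annotation names. It had 7.07 and 6.75 in EST seedlings and 6.31 and 6.15 in mock seedlings. PBS3, named only through the study's list, was higher in EST seedlings by a mean of 1.11 ± 0.47 (SE).

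In the lists of auxin response genes, histones and photosynthesis genes no named member passed 1.5-fold. Only 12 of 144 auxin response genes could be named, and 9 of these were near the minimum on all 4 arrays. Of the 12, 0 lay higher and 1 lower, GH3.9, which is among those 9. Of 5 histones 1 lay higher, HTB11, by a gap of 0.03 that turned to an overlap under quantile normalization and under centring. Photosynthesis genes numbered 28, of which 2 lay higher and 2 lower, with gaps of at most 0.25. Of 4 named ABA and dehydration genes 1 lay higher and 1 lower, and the lists not described here had at most 2 named members each. For ERF and DREB factors, cysteine-rich receptor kinases, ethylene synthesis genes and the GRF and GIF genes the annotation named 0 members, so that these families could not be counted.

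**Figure D5:**
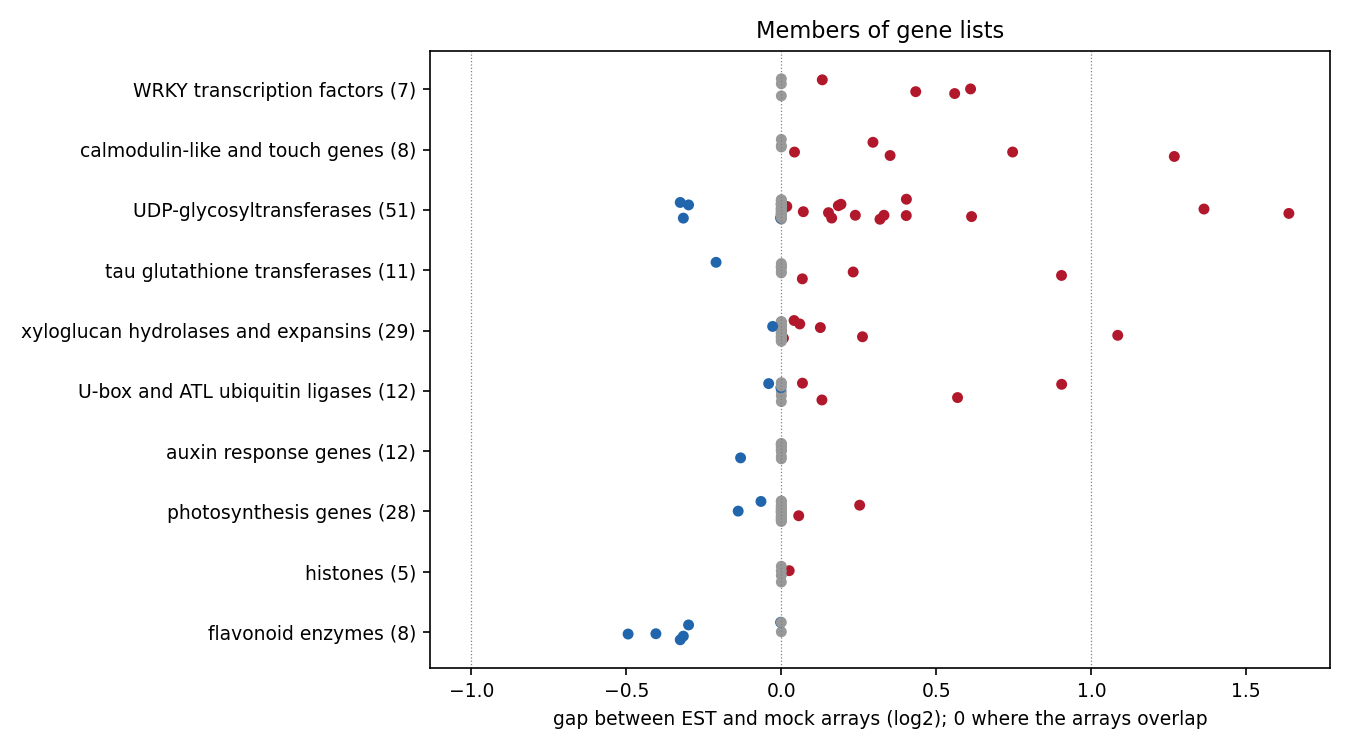
Gap between EST and mock arrays (x axis, log2) for the named members of 10 gene lists, 1 point a gene, with the number of members in brackets. Red points lie higher on both EST arrays, blue points lower, and grey points at 0 stand for genes whose arrays overlap. The points past 1 are CML39, UGT73B4, UGT76B1 and XTH19.

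Falls were few and small. ARR6, a type-A response regulator that cytokinin induces and that dampens cytokinin signalling, had 3.53 and 3.61 in EST seedlings and 5.39 and 4.93 in mock seedlings, a gap of −1.32 or 2.49-fold (difference −1.59 ± 0.213, SE, n = 2 each; limma adjusted p = 0.477). Its probe set was found by 2 of 3 entries in the study's list, since the annotation does not name it. The type-A response regulators RR16 and ARR15 also lay lower in EST seedlings, by smaller gaps of −0.20 and −0.19. RR16 had 4.95 and 5.51 in EST seedlings and 5.72 and 5.71 in mock seedlings, and ARR15 had 2.77 and 2.77 against 3.30 and 2.95 in mock seedlings, with all but the mock 3 h array near the minimum. No other cytokinin gene of the list could be named. The second fall past 2-fold was AT3G46880, of unknown function, with 2.21 and 2.24 in EST seedlings, at the minimum, against 3.94 and 3.37 in mock seedlings. For MSRB6, which repairs oxidized methionine, the signals were 6.50 and 5.83 in EST seedlings and 7.54 and 7.20 in mock seedlings. The 2 other genes listed by the study as lower, DOT1 and CLC-B, overlapped: DOT1 had 9.12 and 8.26 in EST seedlings and 8.81 and 9.28 in mock seedlings, and CLC-B had 5.86 and 4.90 in EST seedlings and 5.70 and 5.91 in mock seedlings.

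Among falls outside the study's list, AT2G36885 was the brightest of the larger ones, with 7.96 and 7.87 in EST seedlings and 8.86 and 8.69 in mock seedlings. AT5G10850 had 3.61 and 3.61 in EST seedlings against 4.36 and 4.40 in mock seedlings, and AT5G23480 had 2.92 and 2.78 against 4.14 and 3.62 in mock seedlings, near the minimum after EST. AT4G12830, AT3G12860 and AT3G15357 had gaps of −0.63, −0.62 and −0.58, and AT5G50915, AT5G63630 and AT1G23205 of −0.57, −0.57 and −0.56. TRM28, of the TON1 recruiting motif family, and AT3G57830 each had −0.55. In 5 of the 15 falls past 1.5-fold both EST arrays were within 1 unit of the minimum.

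Of 19 flavonoid enzymes only 8 could be named, and several of these lay among the falls under 1.5-fold. The group was picked after the values had been seen, and only values are given. DFR, the dihydroflavonol reductase of anthocyanin synthesis, had 9.02 and 8.48 in EST seedlings and 9.57 and 9.52 in mock seedlings. CHIL, a chalcone isomerase-like protein that assists flavonoid synthesis, had 8.29 and 8.30 in EST seedlings against 8.71 and 9.02 in mock seedlings. UF3GT, which adds a xylose to anthocyanins, had 8.80 and 8.33 in EST seedlings against 9.10 and 9.23, and the flavonoid glucosyltransferase UGT78D2 had 9.31 and 9.13 against 9.63 and 9.70 in mock seedlings. In these 4 genes EST lay further below mock at 4 h than at 3 h. UGT78D3 ran the other way, with 2.78 and 2.78 in EST seedlings, near the minimum, against 3.42 and 3.09 in mock seedlings. UGT78D1 had 9.74 and 9.65 in EST seedlings against 9.74 and 9.80 in mock seedlings, a negligible gap. Of the other named flavonoid enzymes, AT5MAT overlapped and BAN was at the minimum throughout.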

How the data were processed

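The authors hybridised total RNA of 1 biological sample per condition to ATH1 arrays and deposited log2 signals normalized with GCRMA, whose version is not given in the sources used here. The deposited log2 values were used unchanged. Of 22810 probe sets, 64 controls were left out. The array annotation paired 13513 probe sets with 1 gene, 503 with several and 8730 with none, and 13436 matched the TAIR10.1 gene table. A further 44 were named because their differences equal the entries of the study's gene list within 2e-05 (91 genes by 3 entries, 3 by 2). No log fold change of that list is printed. The 2 leaf columns entered no comparison beyond that match.

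Gaps were computed in Python 3.11.15. The same rule was coded again in R and run on simulated data, the outcome of which is not given here. limma 3.58.1 (R 4.3.3) compared EST with mock without a block, with Benjamini-Hochberg adjustment at 0.05. Named genes are the 15 largest rises in the study's list, the 20 largest outside it, the 15 largest falls, up to 3 members of each gene list in each direction, and listed genes that overlap. Others, grouped by annotated role, were chosen after their values were seen. Members and lists were chosen with earlier results of these data known. Gene lists were matched by symbol. Near the minimum means within 1 log2 unit of it. Array number limits precision, and p-values measure only the spread between these samples.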

Additional observations from a re-analysis of the deposited data

Results flagged for a closer look

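In 5 genes EST and mock differed at least 2-fold at both times but in opposite directions, and the difference between the times was not tested. On the log2 scale EST minus mock was 1.40 at 3 h and −1.44 at 4 h for AT4G33560, 1.97 and −1.32 for AT4G01390, and 1.12 and −1.47 for AT1G55200. It was −1.90 at 3 h and 1.94 at 4 h for AT4G30170, and −1.03 and 1.11 for AT1G64360. All 5 overlap between treatments, and none is in the study's list. AT4G30170 had 3.10 at 3 h and 6.35 at 4 h in EST seedlings, further apart than EST and mock at either time.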

How the results depend on the processing

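At 1.5-fold 200 probe sets rose and 15 fell, and at 3-fold 11 rose and 0 fell. A mean signal of at least 6 left 26 rises and 0 falls, and 1 probe set a gene left 29 and 1, since these rules drop dim or unnamed probe sets. Time as a replicate block, with each EST array against its own mock array, gave 81 rises, which hold all 52, and 3 falls. Leaving out 1 array gave 70 to 164 rises and 9 to 44 falls. Quantile normalization and centring gave 45 rises each, of which 44 and 45 were among the 52, and 2 falls each. limma called 0 higher and 0 lower with time as a replicate block, with a mean signal of at least 6 (with that block too, a setting added after seeing the data), with quantile normalization and with centring. It called 0 lower with an intensity trend and 1 lower with 1 probe set a gene. Leaving out 1 array gave 0 to 93 calls higher and 0 to 373 lower. The cause was not tested. Of the gaps of 91 named genes, 3 changed sign under each scaling, all small: under quantile normalization HTB11 to −0.0263, EXLA2 to 0.0283 and ATMPK8 to −0.0315, and under centring ATL63 to 0.0213, HTB11 to −0.0862 and ATMPK8 to −0.0244. Without detection calls, signals near the array minimum cannot be told from none.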
